A study of Mus musculus with 54 samples.

Results

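Tuft cells are rare chemosensory cells of the intestinal epithelium, and the 9 genes described here are a set of their identity and effector genes: the transcription factors Pou2f3 and Gfi1b, the kinase gene Dclk1, the signalling genes Trpm5, Gng13 and Rgs13, the leukotriene genes Alox5ap and Ltc4s, and the cytokine gene Il25. They were chosen by name, and all 9 were found both among the 48440 genes of a bulk mRNA table and among the 27998 genes of 4 single-cell matrices from mouse small intestine. The mRNA table covers 16 libraries from crypt cells sorted for low Sox9-EGFP, a green reporter of the Sox9 gene, from C57BL/6J mice in 4 groups of 4: chow-fed mice (chow), mice fed a high fat diet (high fat), conventionalized mice (CV), and germ-free mice (GF). The single cells came from the small intestine of mice 12 months old, labelled wild type or miR-375 knockout on strain C57BL6/2J, with 1 sample of each genotype in each of 2 sets. The labels give no ages or diet lengths for the sorted libraries and do not say whether a sample was 1 animal or a pool. They do not say how the miR-375 knockout was made. That microRNA's own gene is not among the genes counted in the matrices, so no value here checks the genotype labels. Nothing says that replicates came from separate cultures or animals, so p-values measure the spread between these samples only.

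Tuft cells sense luminal contents through a taste-like pathway in which a G protein containing the γ subunit GNG13 acts through phospholipase C and calcium on the cation channel TRPM5. On activation they release interleukin 25, encoded by Il25, which acts on group 2 innate lymphoid cells, whose interleukin 13 in turn drives the growth of tuft and goblet cells. They also make cysteinyl leukotrienes, for which the 5-lipoxygenase-activating protein (Alox5ap) presents the substrate and leukotriene C4 synthase (Ltc4s) makes the first product of that branch. POU2F3, an octamer-binding factor, is the lineage's master regulator. GFI1B is a zinc-finger repressor marking the lineage, DCLK1 is a widely used marker protein, and RGS13 shortens G protein signals.

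All 9 genes lie on different chromosomes in GRCm38 (mm10, annotation GENCODE vM21). Dclk1 (ENSMUSG00000027797) spans chr3:55242364-55539068 on the plus strand, Trpm5 (ENSMUSG00000009246) chr7:143069153-143094642 on the minus strand, and Gng13 (ENSMUSG00000025739) chr17:25717171-25719406 on the plus strand. Rgs13 (ENSMUSG00000051079) lies at chr1:144138654-144177372, Pou2f3 (ENSMUSG00000032015) at chr9:43123939-43210369 and Gfi1b (ENSMUSG00000026815) at chr2:28609450-28621982, all on the minus strand. Alox5ap (ENSMUSG00000060063) lies at chr5:149264767-149288153 on the plus strand, Ltc4s (ENSMUSG00000020377) at chr11:50236461-50238616 on the minus strand, and Il25 (ENSMUSG00000040770) at chr14:54932695-54935837 on the plus strand.

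Of the 9 genes, 6 were matched in a RefSeq table of start-site windows (GRCm38.p6, 250 bases before to 50 bases from the start), with 8 windows between them. The windows of Trpm5 (chr7:143094593-143094892, minus strand) and Ltc4s (chr11:50238483-50238782, minus strand) are shown because these genes passed the diet test below, and that of Gfi1b (chr2:28621933-28622232, minus strand) because it holds part of the octamer; the capitals in it mark those 6 bases.
Trpm5: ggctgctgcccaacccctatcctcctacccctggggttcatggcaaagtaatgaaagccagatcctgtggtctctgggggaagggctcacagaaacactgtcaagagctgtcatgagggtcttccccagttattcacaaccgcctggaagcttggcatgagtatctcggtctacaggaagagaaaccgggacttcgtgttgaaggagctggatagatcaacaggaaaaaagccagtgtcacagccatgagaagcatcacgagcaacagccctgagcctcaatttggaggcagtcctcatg
Ltc4s: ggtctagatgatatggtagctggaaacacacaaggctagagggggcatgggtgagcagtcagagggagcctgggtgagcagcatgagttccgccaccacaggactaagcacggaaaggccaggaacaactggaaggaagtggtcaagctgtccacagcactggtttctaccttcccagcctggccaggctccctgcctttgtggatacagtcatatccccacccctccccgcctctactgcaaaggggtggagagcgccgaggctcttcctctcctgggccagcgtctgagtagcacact
Gfi1b: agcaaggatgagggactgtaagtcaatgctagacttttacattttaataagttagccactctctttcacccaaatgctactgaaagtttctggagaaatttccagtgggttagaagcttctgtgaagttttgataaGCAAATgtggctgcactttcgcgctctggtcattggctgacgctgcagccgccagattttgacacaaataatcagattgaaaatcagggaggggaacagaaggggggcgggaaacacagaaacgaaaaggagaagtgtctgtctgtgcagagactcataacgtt
The octamer (AT followed by GCAAAT), searched on both strands, was in none of the 8 windows and in 1.74% of the table's 32851 windows. Its last 6 bases, GCAAAT, which every octamer also holds, were in the Gfi1b window alone, 114 bases before the start, and in 10.5% of all windows.

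In the sorted crypt cells every one of the 9 genes was lower on the high fat diet than on chow, by 2.41-fold (Gng13) to 5.22-fold (Il25) in the means, and 4 of them, Trpm5, Pou2f3, Ltc4s and Il25, fell past the test. The comparison asks how diet changed the transcriptome of these cells. Values are the authors' normalized counts, and tests used limma on log2(value + 1) over the 16421 genes with a mean of at least 10, with Benjamini-Hochberg adjustment. Of those genes 0.822% were called, and 0.615% were called lower on the high fat diet. At an unadjusted p under 0.05 stood all 9 genes (limma p from 1.47e-04 to 0.00278) and 26.7% of all tested genes. With bulk RNA, fewer tuft cells and less RNA per tuft cell cannot be told apart.

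**Figure D1:**
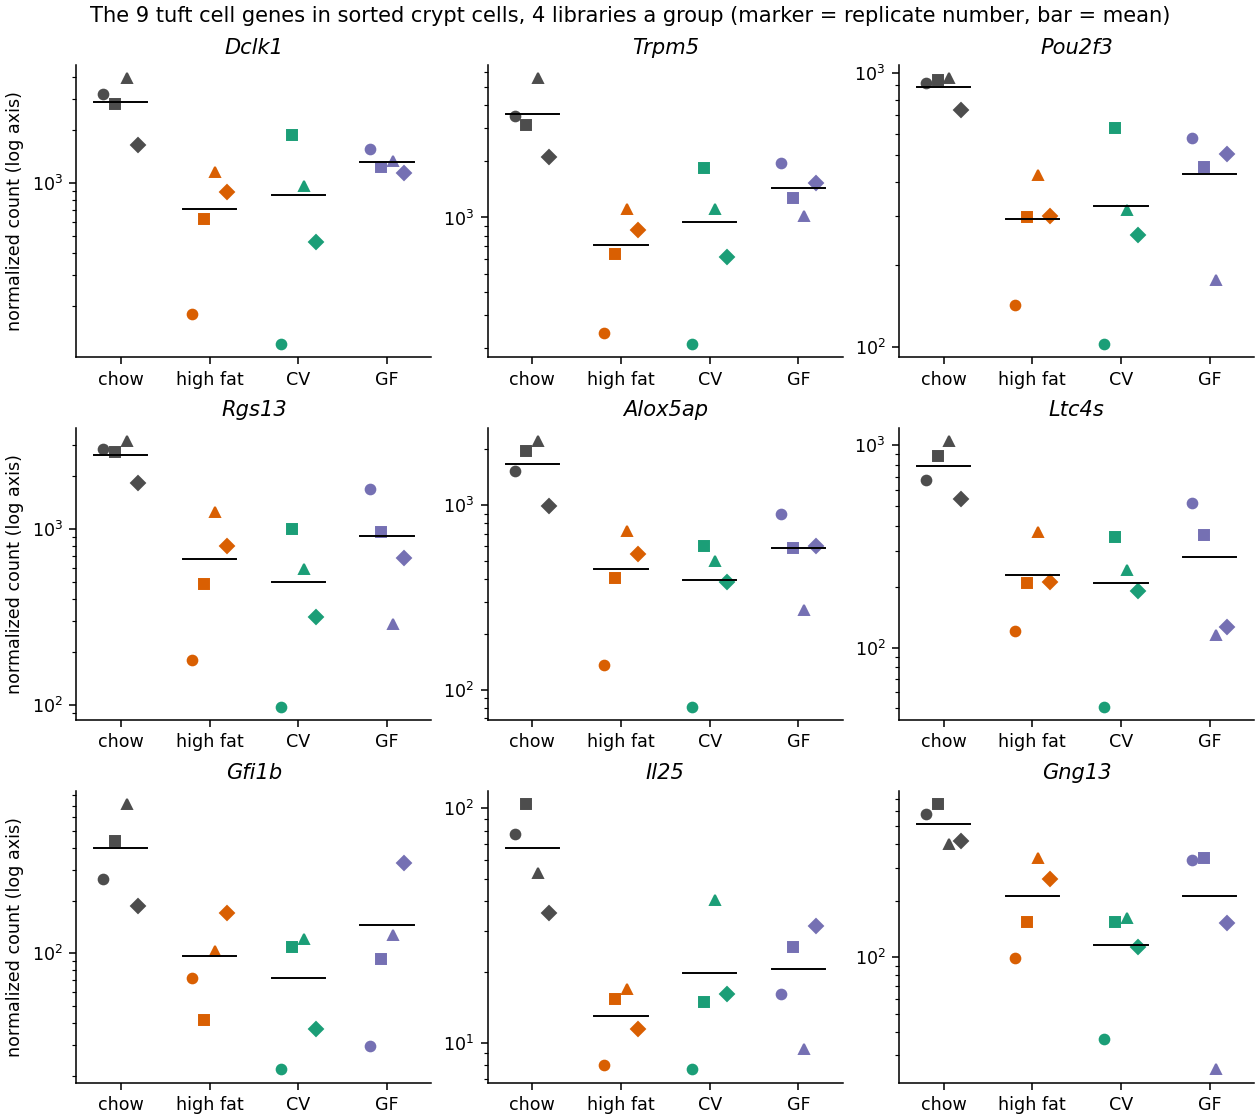
Normalized count (log axis) of each of the 9 tuft cell genes in the 16 sorted libraries, by group; each point is a library, its shape the replicate number, and the bar the group mean. The 4 chow libraries lie above the 4 high fat libraries in every panel, and conventionalized replicate 1 is the lowest conventionalized library for all 9 genes.

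Trpm5, the calcium-activated channel of the taste-like pathway, was at 3481, 3122, 5553 and 2111 normalized counts in the chow libraries and at 242, 634, 1113 and 853 in the high fat libraries. The groups did not overlap, and chow replicate 3 stood highest. The means were 3567 ± 1445 (SD, n = 4) and 710 ± 369 (SD, n = 4), a difference in log2(value + 1) of -2.44 ± 0.44 (SE) with a limma adjusted p of 0.0442. Its partner Gng13 was at 577, 655, 402 and 416 on chow and at 99.2, 155, 336 and 259.8 on the high fat diet. The groups did not overlap, but the log2 difference, -1.39 ± 0.35 (SE), did not pass (limma adjusted p = 0.0823). Rgs13 differed by -2.24 ± 0.49 (SE; limma adjusted p = 0.0628), with chow libraries from 1817 to 3132 and high fat libraries from 181 to 1238.

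Pou2f3, the lineage regulator, was close to even in chow replicates 1 to 3 and lower in replicate 4: 919.6, 939, 955 and 733 normalized counts, against 143, 299, 426 and 300.2 in the high fat libraries. The log2 difference was -1.69 ± 0.29 (SE; limma adjusted p = 0.0389), a 3.04-fold ratio of means. Gfi1b was at 266, 436, 714 and 186 on chow and at 72.4, 41.6, 103 and 169 on the high fat diet. The lowest chow and the highest high fat library of Gfi1b lay close together without overlap, and its difference of -2.04 ± 0.48 (SE) did not pass (limma adjusted p = 0.0739). Dclk1, with chow libraries from 1644 to 3916 and high fat libraries from 179.9 to 1154, differed by -2.25 ± 0.51 (SE; limma adjusted p = 0.0698).

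Of the effector genes, Il25 was at 77.2, 104, 53.0 and 35.8 normalized counts on chow and at 8.02, 15.4, 16.9 and 11.5 on the high fat diet. The high fat levels are near the minimum mean of 10, the groups were apart, and the log2 difference of -2.24 ± 0.41 (SE) passed (limma adjusted p = 0.0442). Ltc4s was at 677, 884, 1046 and 543 on chow and at 120.4, 207, 374 and 209.8 on the high fat diet, a log2 difference of -1.85 ± 0.32 (SE; limma adjusted p = 0.0389). Alox5ap, the gene that acts before it, had chow libraries from 986 to 2216 and high fat libraries from 136 to 724. Its difference was -2.06 ± 0.46 (SE) and did not pass (limma adjusted p = 0.0677). The 9 genes were all apart between the groups, where 7.36% of all tested genes were lower on the high fat diet without overlap.

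**Figure D2:**
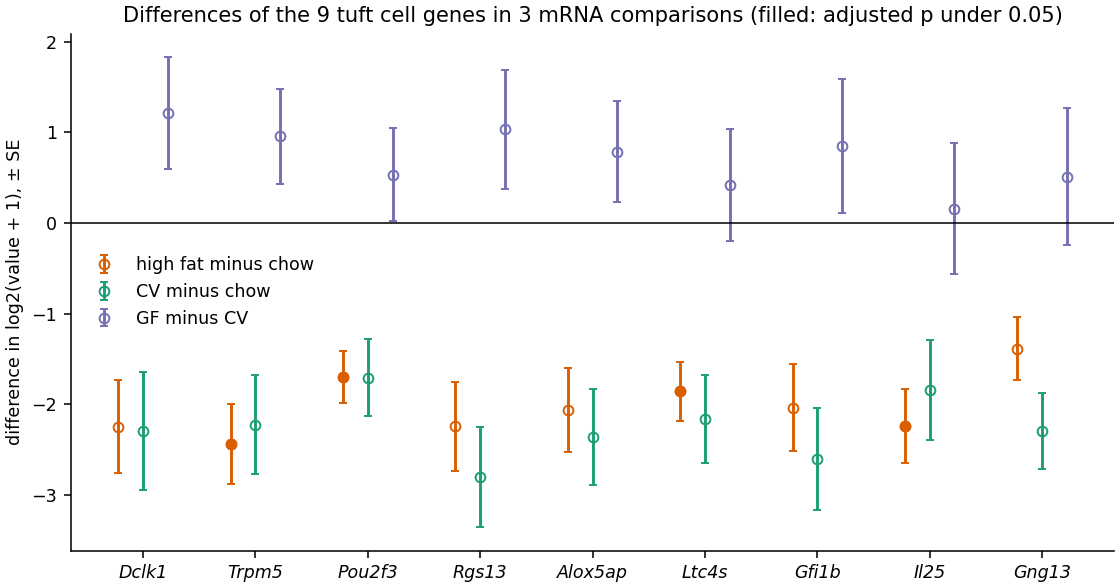
Differences in log2(value + 1) with their standard errors for the 9 tuft cell genes in 3 comparisons of 4 libraries against 4; filled points passed limma at an adjusted p of 0.05. The high fat minus chow and CV minus chow values, which share the chow libraries, lie between -1.39 and -2.80, and the GF minus CV values between 0.16 and 1.21.

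All 9 differences kept their sign in every alternative fit that was run, but the 4 calls became 0 without chow replicate 1, 3 or 4, without any 1 of the high fat replicates, and in a fit of all 4 groups together, and became 8 without chow replicate 2 and 8 with no filter. In the series' small RNA table the column names of chow replicate 3 and high fat replicate 3 carry the other diet. Without both libraries none of the 9 passed. Chow replicate 3 was the highest of all 16 libraries for 7 of the 9 genes, and high fat replicate 3 was below every chow library for all 9.

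Of 28 other tuft identity genes, 27 were lower and 1 was higher. The test called 15 lower and 0 higher, where 0.615% of all tested genes were called lower. Without overlap 26 were lower (7.36% of all tested genes were), and the median log2 difference was -1.80 against 0.05 over all tested genes. Siglecf, a sialic-acid-binding surface lectin, fell most among those called, from 464 ± 231 to 71.1 ± 37.3 (SD, n = 4 each; log2 difference -2.80, limma adjusted p = 0.0402). Avil, the actin-binding protein advillin, fell from 4555 ± 1646 to 814 ± 494 (SD, n = 4 each; -2.64, limma adjusted p = 0.0389). The kinase gene Matk fell as well (-2.49, limma adjusted p = 0.0371). Of 14 taste-like signalling genes, 10 were tested, 8 were lower and 1 was called. That was the short-chain fatty acid receptor gene Ffar3, which fell from 481 ± 129 to 97.5 ± 52.6 (SD, n = 4 each, log2 difference -2.49, limma adjusted p = 0.0442). The list's median was -0.87.

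Of 12 eicosanoid enzyme and receptor genes 9 were tested and 0 passed, with a median of -0.04. Their log2 differences ran from -2.67 to 0.61, with 5 genes lower on the high fat diet and 4 higher. The 2 most abundant were Mgst3, a microsomal glutathione transferase gene, at 9758 ± 2532 on the high fat diet and 9810 ± 1193 on chow (SD, n = 4 each), and Lta4h, leukotriene A4 hydrolase, whose log2 difference was 0.53 (limma adjusted p = 0.189). Of 10 genes of the type 2 immune circuit 6 were tested, 4 were lower and 2 of them were called. They were Il17rb, a subunit of the interleukin 25 receptor, which fell from 237 ± 42.2 to 75.1 ± 23.0, and Il13ra1, a subunit of the interleukin 13 receptor, which fell from 1639 ± 241 to 829 ± 96.6 (SD, n = 4 each; limma adjusted p = 0.0371 for each). Il17rb is also counted in the list of tuft identity genes.

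Markers of other cell types also differed between these libraries. The summed level of 15 enteroendocrine markers ran from 380497 to 1234158 normalized counts on chow and from 120577 to 301863 on the high fat diet. Of them 15 of 15 were lower, 12 without overlap and 1 called, with a median log2 difference of -1.95. Of all tested genes 7.36% were lower without overlap. The 10 T cell markers summed to 58.7 to 180.3 on chow and 9.59 to 18.5 on the high fat diet, with Nkg7 and Trbc2 at 0 in the latter. Of the 10 T cell markers 2 were tested, both lower and 1 called. The sums of 9 mast cell markers were 422 to 961 and 246 to 351, with Cma1 at 0 in both groups and Mcpt2 at 0 on the high fat diet. Of the 9 mast cell markers 2 were tested, 1 higher and 1 lower, and the lower was called. The 13 cycling markers went the other way, 14885 to 36377 on chow and 35322 to 44215 on the high fat diet, 13 of 13 higher and 0 called. The 12 enterocyte markers summed to 27354 to 37807 on chow and 32964 to 95335 on the high fat diet (medians 33362 and 63681), 9 of 12 higher and 0 called. The 10 goblet markers summed to 68513 to 255685 and 94616 to 331769 (medians 94117 and 264922), 10 of 10 higher and 0 called. The part of these cells in the difference of the 9 genes was not tested. The crypt label was set beside 10 stem cell markers. None of the 10 was at 0 in any whole group. Their sums ran from 60117 to 115519 on chow and from 66100 to 148983 on the high fat diet, with 7 higher, 1 of them called, and 3 lower. No mRNA library from outside the crypt was there to compare, so these values cannot decide that label.

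Some of the 9 genes share their locus with another gene, and the library kit does not mark strand, so reads of overlapping exons cannot be assigned between them. Trpm5 overlaps Tssc4 and Gng13 overlaps Chtf18 on the opposite strand. Tssc4 was at 1068 on chow and 1235 on the high fat diet (mean normalized counts), and Chtf18 at 398 and 826, neither passing (limma adjusted p = 0.343 and 0.0876) and both with the higher mean on the high fat diet, where Trpm5 and Gng13 had the lower. Ltc4s overlaps the antisense gene Gm26542, at 55.6 and 54.1, Alox5ap overlaps Gm19719, at 4.53 and 1.21, and Dclk1 overlaps Gm42609, at 20.2 and 6.84, and Gm21954, listed at 0 in both groups, on the opposite strand, beside genes of its own strand. Pou2f3, Rgs13, Gfi1b and Il25 overlap no other annotated gene.

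Conventionalized mice, germ-free animals given a microbiota, had lower levels of all 9 genes than the chow group, which serves as the control of both the diet comparison and this one. The log2 differences ran from -1.70 (Pou2f3) to -2.80 (Rgs13), and 7 of 9 genes, all but Dclk1 and Il25, did not overlap, where 4.38% of 17941 tested genes were lower in the CV group without overlap. None passed (limma adjusted p from 0.0760 for Gng13 to 0.262 for Il25), in a comparison in which 0.0948% of genes were called, all of them lower in the CV group. At an unadjusted p under 0.05 stood all 9 (limma p from 1.57e-04 to 0.00604) and 11.2% of all genes. The labels do not place chow and CV mice in 1 experiment, so colony, housing and library batch cannot be told apart from the group. Enteroendocrine markers were lower in CV as well for 15 of 15 genes, 5 of them without overlap and 0 called. Their sums were 128074 to 331790 against 380497 to 1234158 on chow, and their part in the values of the 9 genes was not tested.

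Rgs13 was at 98.0, 995, 590 and 315 normalized counts in the CV libraries against 2821, 2722, 3132 and 1817 on chow. It had the greatest difference of the 9 (-2.80 ± 0.55, SE; limma adjusted p = 0.0940), with no CV library inside the chow range. Gng13 was at 36.6, 155, 161 and 114 in CV and had the smallest adjusted p (-2.30 ± 0.42, SE; limma adjusted p = 0.0760). CV replicate 1 was the lowest of all 16 libraries for 8 of the 9 genes, all but Gng13. Dclk1 shows the overlap: CV replicate 2, at 1866, was above chow replicate 4, at 1644, while CV replicate 1 was at 121. Of the 28 other tuft identity genes 28 were lower in the CV group and 1 fell past the test, Espn, which encodes the actin bundler espin, from 1413 ± 429 to 549 ± 12.7 (SD, n = 4 each; log2 difference -1.32, limma adjusted p = 0.0422). None of the tested taste-like, eicosanoid or type 2 circuit genes passed. The 2 most abundant of each were Gnb1 (0.17) and Gnai2 (-0.59), Mgst3 (-0.68) and Lta4h (0.34), and Stat6 (0.10) and Il13ra1 (-0.92), as log2 differences with limma adjusted p from 0.204 to 0.849.

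Germ-free mice were compared with the same conventionalized libraries, to ask what microbes change. The means of all 9 genes were higher without microbes, with log2 differences from 0.16 (Il25) to 1.21 (Dclk1), but none passed (limma adjusted p from 0.285 to 0.908) and the groups overlapped for all 9. In this comparison 2.24% of 20214 genes were called, 1.95% were called higher in GF, and 6.26% were higher in GF without overlap. None of the 9 genes had an unadjusted p under 0.05 (lowest limma p 0.0734), where 20.1% of all genes did. Dclk1 was at 1546, 1236, 1326 and 1141 normalized counts in the GF libraries and at 121, 1866, 956 and 460 in CV, and the GF libraries lay inside the CV range. Trpm5 was at 1959, 1265, 1015 and 1523 in GF and at 211, 1838, 1112 and 618 in CV. Without CV replicate 1 the difference of Ltc4s became -0.15 and that of Il25 -0.19. The median difference of all tested genes was 0.11.

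Pou2f3 was at 578, 453, 176 and 507 normalized counts in the GF libraries and at 103, 630.3, 317 and 257 in CV. Of the effector genes, Alox5ap was at 890.3, 585, 271 and 597 in GF and at 81.2, 601, 500.2 and 382 in CV. Ltc4s was at 519, 358, 115 and 126 in GF and at 51.1, 351, 242 and 190.3 in CV. In each of these genes the lowest library was CV replicate 1, and the GF and CV ranges overlapped. Il25 was at 16.0, 25.5, 9.39 and 31.3 in GF and at 7.69, 14.95, 40.6 and 16.0 in CV, few counts in every library.

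The GF libraries spread widely for some genes. Gfi1b ranged from 29.6 in GF replicate 1 to 329 in replicate 4, while Rgs13 was highest in GF replicate 1, at 1682, and lowest in replicate 3, at 289. Gng13 was at 331 and 336 in GF replicates 1 and 2 and at 25.3 in replicate 3, its lowest value in the 16 libraries. The 9 genes did not keep 1 order across the GF libraries. Of the 28 other tuft identity genes 24 were higher in GF and none passed; the 2 most abundant were Avil (1.12) and Inpp5j (0.59; log2 differences, limma adjusted p = 0.286 and 0.191). No taste-like, eicosanoid or type 2 circuit gene passed either, the most abundant of each being Gnb1 (-0.34) with Gnai2 (0.37), Mgst3 (0.18) with Lta4h (-0.90), and Stat6 (-0.60) with Il13ra1 (0.22; limma adjusted p from 0.213 to 0.733). Enteroendocrine marker sums were 596254 to 1227372 in GF and 128074 to 331790 in CV, 15 of 15 higher and 7 called; stem marker sums were 12189 to 71484 and 62700 to 127923, and the stem and cycling lists were lower in 10 of 10 and 13 of 13 genes. Their part in the values of the 9 genes was not tested.

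Across the 4 groups, each of Trpm5, Pou2f3, Rgs13, Alox5ap, Ltc4s and Gng13 was higher in every chow library than in any of the other 12, as were 0.273% of the 18682 genes with a mean of at least 10 over the 16 libraries. Dclk1, Gfi1b and Il25 each had at least 1 library of another group above the lowest chow library. The order of means below chow was GF, CV, high fat for Dclk1, Trpm5, Pou2f3 and Il25 and GF, high fat, CV for Rgs13, Alox5ap, Ltc4s and Gfi1b. For Gng13 the high fat and GF means were nearly equal, at 212 and 211, above CV at 117. The ranges of neighbouring groups below chow overlapped for every gene.

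The single-cell matrices hold whole UMI counts, 24760063 and 24533466 in set 1 (wild type and knockout) and 70409055 and 66022224 in set 2. After filters, 1185 and 1229 cells were kept in set 1 and 3156 of 7711 and 3149 of 7665 barcodes in set 2. The median mitochondrial share of all set 2 barcodes was 40.9% and 37.9%, above the limit of 25%. The median kept cell held 16312 and 15877 UMIs in set 1 and 5695 (wild type) and 13524 (knockout) in set 2. T cell-like cells, which held few UMIs, made up 1370 and 812 of the set 2 cells. The samples of set 1 shared 1 barcode and those of set 2 shared 12, 3 of them among kept cells. Cells were clustered in each set without the 9 genes, and 1 cluster in each set raised 18 of 18 tuft cell markers that do not include them; these clusters are called tuft-like.

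The 9 genes were concentrated in those clusters, which held 23, 46, 21 and 42 cells (wild type and knockout of set 1, then of set 2). Every tuft-like cell held a UMI of at least 3 of the 9 genes. Outside them, 2, 3, 11 and 8 cells did. In wild type set 1, 960 of 1185 cells held none and 188 held 1, and the most common number in tuft-like cells was 8 in both samples of set 1 and 7 in both of set 2. In wild type set 2 the 11 outside cells were 4 cycling-like, 4 enterocyte-like and 3 goblet-like cells with a median of 79600 UMIs, against 12970 in that sample's tuft-like cells. Whether such cells are doublets was not tested. The removal of the highest doublet scores had taken 1, 0, 7 and 16 cells with at least 3 of the genes (in the order above).

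**Figure D3:**
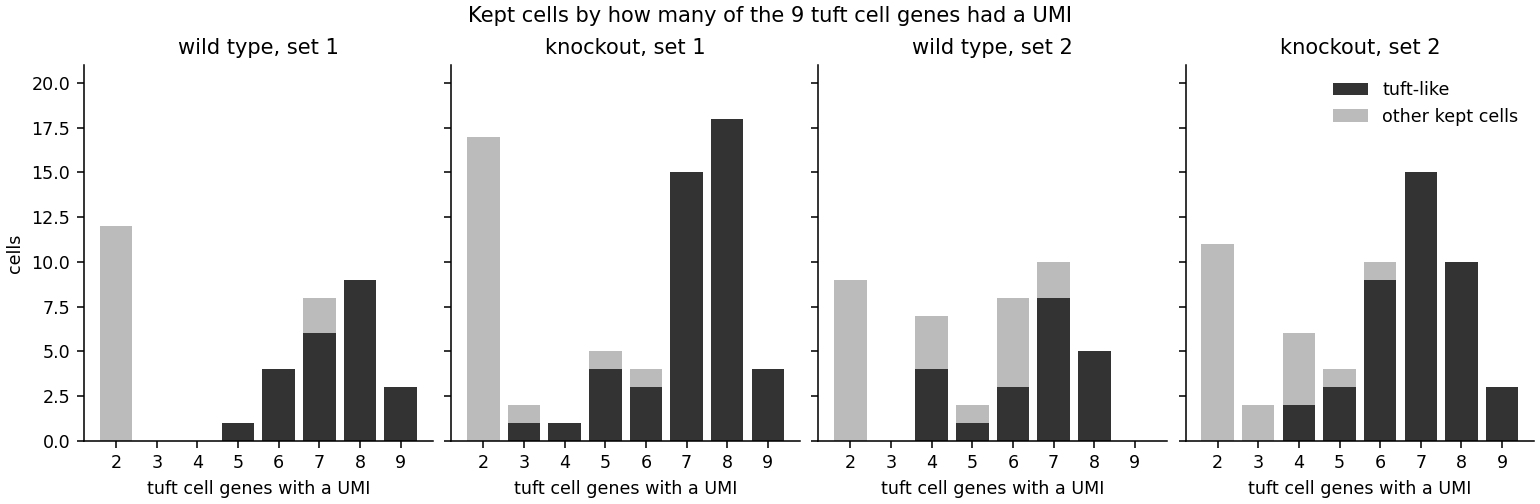
Number of kept cells (vertical axis) holding a UMI of 2 to 9 of the 9 tuft cell genes (horizontal axis) in each single-cell sample, with tuft-like cells dark and all other kept cells pale. At 2 genes stand 9 to 17 cells a sample, none of them tuft-like, and the tuft-like cells peak at 7 or 8 genes.

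Detection within tuft-like cells split the set into abundant and sparse genes. Rgs13 had a UMI in 100%, 100%, 100% and 95.2% of tuft-like cells (wild type and knockout of set 1, then of set 2) and Dclk1 in 100%, 89.1%, 95.2% and 97.6%. Trpm5, Alox5ap and Ltc4s were found in 85.7% to 100%, Gng13 in 76.2% to 97.8% and Pou2f3 in 71.4% to 87.0%. Il25 had a UMI in 47.8%, 21.7%, 19.05% and 19.05%, and Gfi1b in 21.7%, 39.1%, 9.52% and 28.6%. The exact 95% binomial interval of the lowest of these, 2 of 21 cells, is 1.17% to 30.4%, so the sparse genes' shares are loose, and these intervals cover counting error only.

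**Figure D4:**
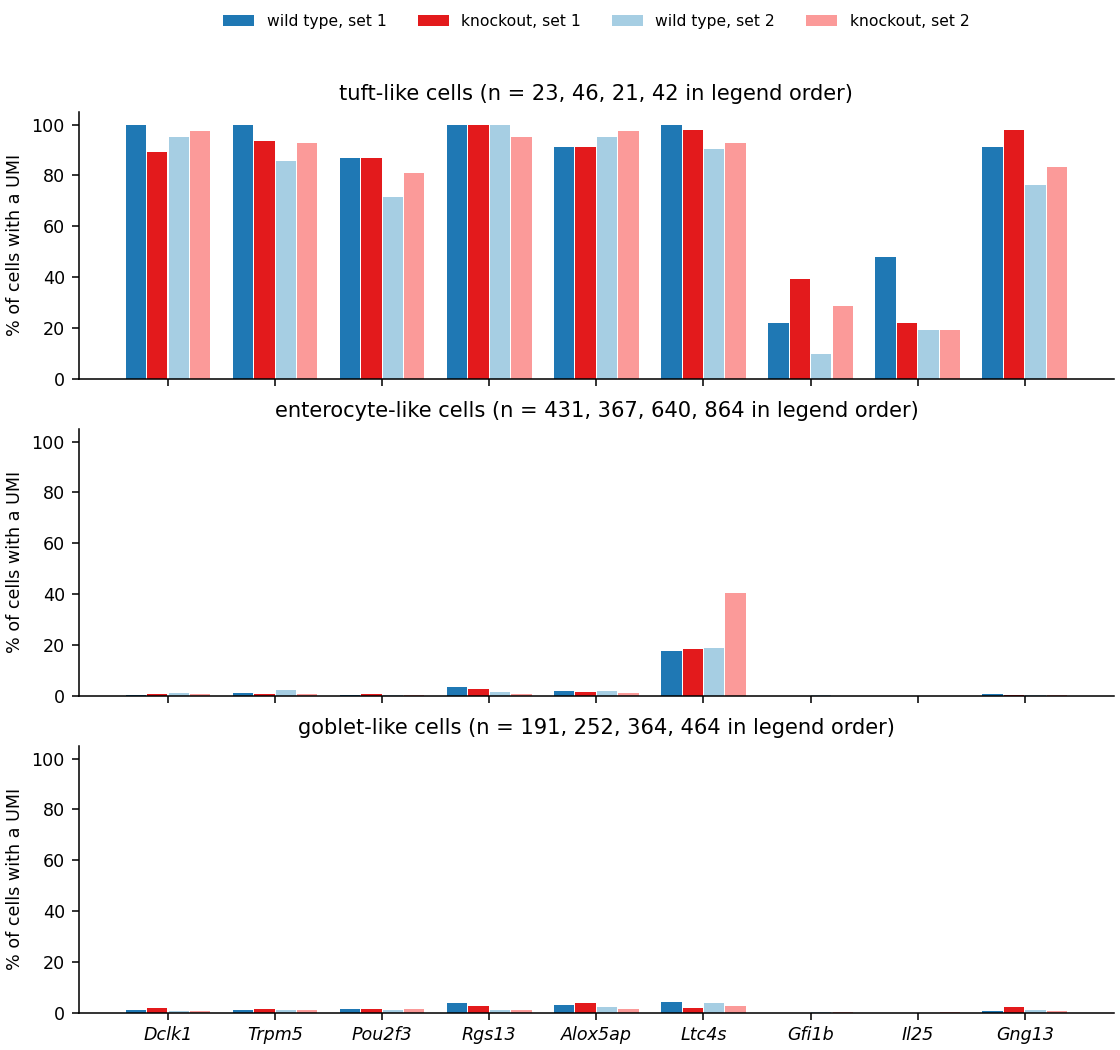
Percentage of cells with a UMI (vertical axis) of each of the 9 tuft cell genes in tuft-like, enterocyte-like and goblet-like cells, with a bar for each single-cell sample. Apart from Ltc4s in enterocyte-like cells, at 17.4% to 40.3%, every bar outside the tuft-like panel is at 4.19% or lower.

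Il25, the cytokine, was found almost only in tuft-like cells: 11 of 11, 10 of 10, 4 of 4 and 8 of 9 of its cells were tuft-like (same order), and none of the enterocyte-like cells held it, which allows shares of up to 0.696%, 0.817%, 0.469% and 0.347% with a UMI. For Gfi1b, 5 of 6, 18 of 19, 2 of 4 and 12 of 13 cells were tuft-like. Dclk1, Pou2f3, Gng13 and Trpm5 had 61.9% to 96.8% of their UMIs in the tuft-like cells, with wild type set 2 lowest for all 4. Alox5ap was shared with immune cells: it was in 80.0% of the 5 wild type and 100% of the 4 knockout mast-like cells of set 2, in 100% and 78.9% of 16 and 38 cells of an unnamed set 2 cluster led by Ly6d, Tyrobp and Siglech (wild type and knockout), and in 25.9% of the 27 cells of either sample in an immune cluster of set 1 led by Jchain, Mcpt1 and Mcpt2. Alox5ap encodes a protein used in leukotriene synthesis by many leukocytes. In goblet-like cells it was in 1.29% to 3.57%. Rgs13 was also seen in immune cells, in 11.1% of the 27 cells of either sample in the immune cluster of set 1. In set 2 it was in 0 of 127 wild type and 2 of 46 knockout B cell-like cells, and in 1 of 5 wild type and 0 of 4 knockout mast-like cells.

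Ltc4s was also seen in absorptive cells. It had a UMI in 17.4%, 18.3%, 18.8% and 40.3% of enterocyte-like cells (wild type and knockout of set 1, then of set 2), against 1.98% to 4.19% of goblet-like cells in the same samples, with median depths of 17539, 17170, 23912, 14932.5 UMIs a goblet-like and 15260, 13956, 25036.5, 17487 UMIs an enterocyte-like cell. No enteroendocrine-like cell held one. Ltc4s was in 1.85% to 7.14% of cycling-like, 2.19% to 5.14% of stem-like and 2.24% to 10.1% of Paneth-like cells (median depths of Paneth-like cells 37540 to 73555 UMIs). In set 2 it was also in 2 of 5 wild type and 0 of 4 knockout mast-like cells and in 1 of 7 wild type and 3 of 8 knockout myeloid-like cells. Its level in enterocyte-like cells was 14.0, 20.2, 9.54 and 34.7 CPM (UMIs scaled to an equal total per sample), against 873, 852, 795 and 964 in tuft-like cells. Thinned to 3000 UMIs a cell, the enterocyte-like shares were 4.18%, 6.81%, 3.20% and 9.54%. Of all Ltc4s UMIs 72.4%, 81.1%, 43.2% and 31.9% came from tuft-like cells.

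Within the enterocyte-like class Ltc4s was unevenly spread over clusters. In set 2 it was in 38.8% and 63.0% of wild type and knockout cells of the cluster led by Apoa4, Rbp2 and Apoc3, in 28.7% and 50.6% of the one led by Gsta1, Reg3a and Rbp2, and in 11.7% and 12.4% of the one led by Dmbt1, Nts and Apol10a. Those first 2 clusters held 98 and 136 of 640 wild type and 292 and 253 of 864 knockout cells. In set 1 the cluster led by Apoa4, Apoa1 and Rbp2 had it in 30.9% of 110 wild type and 73.2% of 41 knockout cells, at 33.1 and 122.6 CPM. These clusters were singled out after their values were seen, each genotype has 1 sample in each set, and the differences have no test.

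The genes were found in the same cells. Of the cells with a Dclk1 UMI, 82.6% also held Rgs13, 79.6% Alox5ap, 79.6% Ltc4s, 79.0% Trpm5, 70.7% Gng13 and 67.7% Pou2f3, pooled over the 4 samples. In cells without Dclk1, Rgs13 was in 1.26%, Alox5ap in 2.28%, Ltc4s in 8.82%, Trpm5 in 0.620%, Gng13 in 0.514% and Pou2f3 in 0.468%. Of the 34 cells with Il25, 33 also held Dclk1. Of the 887 cells with Ltc4s 14.99% held Dclk1.

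By a fixed rule, the genes whose cells were most like those with at least 3 of the 9 genes were named. The measure was the Jaccard index (cells with both, over cells with either), averaged over the 4 samples, among genes found in at least 5 cells of each. Sh2d7, an SH2-domain gene, stood first at 0.789, and the homeobox gene Hmx2 followed at 0.744. Ly6g6f was at 0.707, Sh2d6 at 0.677, the kinase gene Bmx at 0.618 and Pik3r5, a regulatory subunit of phosphoinositide 3-kinase, at 0.606. Hmx3 was at 0.582 and Alox5, 5-lipoxygenase, at 0.570. Nebl was at 0.555, with 0.714 in wild type set 1 and 0.166 in wild type set 2. This describes these 4 samples, and depth is shared by all genes of a cell.

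Tuft-like cells were a larger share of the epithelial cells in the knockout sample of each set. The share of all kept cells with at least 3 of the 9 genes was also larger, but it counts largely the same cells. Of the cells with at least 3 genes, 23 of 25 and 46 of 49 in set 1 were tuft-like (wild type and knockout), and 21 of 32 and 42 of 50 in set 2. With 2 samples a genotype the exact permutation test used for these shares cannot reach a p of 0.05. Tuft-like cells were 1.99% of epithelial cells in wild type and 3.83% in knockout of set 1 (exact 95% binomial intervals 1.26% to 2.97% and 2.82% to 5.07%). In set 2 they were 1.29% and 1.87% (0.799% to 1.96% and 1.35% to 2.52%). The set 1 wild type sample was above the set 2 knockout sample, so the genotypes overlapped. The comparison asks whether loss of miR-375 changes the makeup of the epithelium.

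To compare at equal depth, each cell was thinned to 3000 UMIs and shallower cells were left out, 990 in wild type and 872 in knockout of set 2 and 0 in set 1. Of the set 2 cells that stayed, 565 in wild type and 75 in knockout were T cell-like. Cells with at least 3 of the genes were then 1.77% of 1185 (wild type) and 3.34% of 1229 (knockout) in set 1, and 0.877% of 2166 and 1.84% of 2277 in set 2. The means were 1.32% and 2.59%, a difference of 1.27 percentage points, with a two-sided exact permutation p of 0.333, the smallest that 2 samples against 2 allow. The lowest knockout sample was just above the highest wild type sample. Without thinning the shares were 2.11% and 3.99% in set 1 and 1.01% and 1.59% in set 2, the genotypes overlapped, and the exact permutation p was 0.667. Among epithelial cells only, the thinned shares were 1.81% and 3.41% in set 1 and 1.22% and 1.94% in set 2. Unthinned, the epithelial shares were 2.16% and 4.08% in set 1 and 1.96% and 2.23% in set 2.

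**Figure D5:**
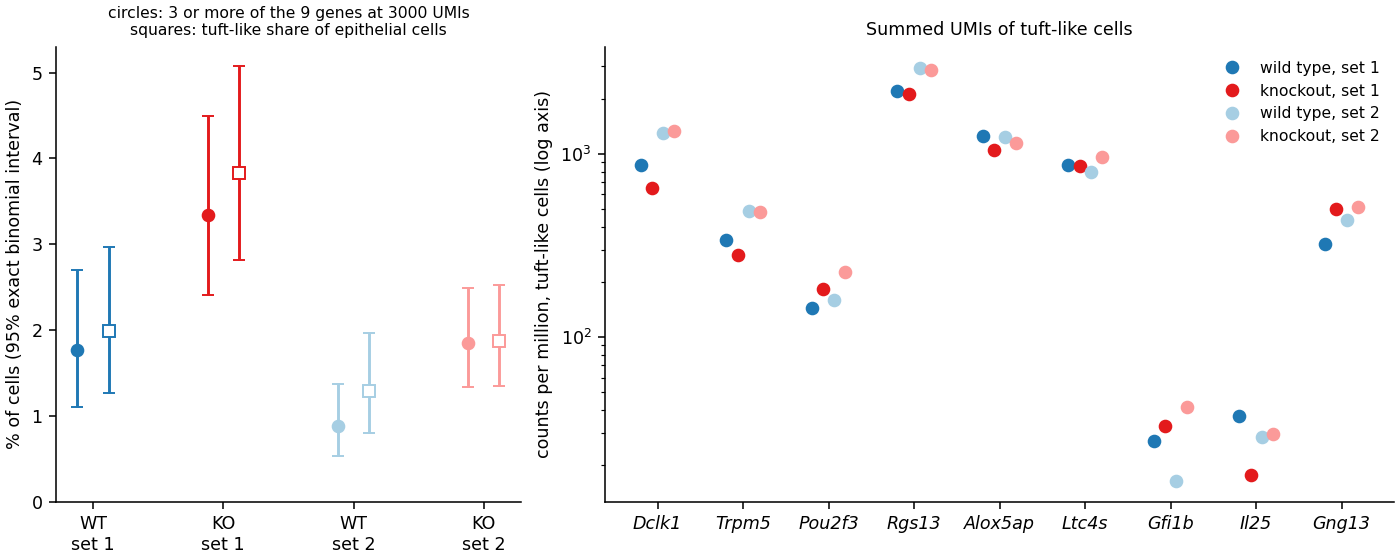
Left, percentage of kept cells with at least 3 of the 9 genes at 3000 UMIs (circles) and tuft-like percentage of epithelial cells (squares) with exact 95% binomial intervals, by sample; right, CPM (log axis) of each gene in the summed tuft-like cells of each sample. The knockout sample is above the wild type sample of its set on the left, while on the right only Pou2f3, Gfi1b and Gng13 are higher in knockout in both sets.

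In the summed counts of all kept cells none of the 9 genes passed edgeR's quasi-likelihood test between genotypes (adjusted p = 1.00 for each). Nor did any of 13543 genes (0% called; 86, or 0.635%, at an unadjusted p under 0.05; DESeq2 called 7, none of them among the 9). Rgs13 was at 39.1 and 67.1 CPM in wild type and knockout of set 1 and at 14.8 and 20.5 in set 2, a log2 difference of 0.72 ± 0.87 (SE). Gng13 was at 5.78 and 16.1 in set 1 and at 2.42 and 3.75 in set 2 (1.32 ± 0.95, SE), and Pou2f3 at 2.67 and 6.08, then 1.17 and 1.85 (1.09 ± 0.88, SE). All but Il25 were higher in knockout in both sets, 8 of 9 genes, where 10.3% of all tested genes were. T cell markers were lower in knockout for 9 of 9 tested genes, with a median of -0.72, and their part in the values of the 9 genes was not tested.

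For the other genes, Dclk1 differed by 0.49 ± 0.68, Trpm5 by 0.47 ± 0.72, Alox5ap by 0.44 ± 0.91 and Ltc4s by 0.89 ± 0.63 (log2, SE). Gfi1b rested on 12 and 26 UMIs in set 1 and 6 and 15 in set 2 (1.25 ± 1.19, SE), and Il25 on 15 and 13, then 7 and 11 (0.05 ± 1.13, SE). Without wild type replicate 2 (the set 2 sample) the differences of Dclk1, Trpm5, Alox5ap and Il25 turned negative, and without knockout replicate 1 all but that of Ltc4s did. Levels also differed between the sets, so a fit without the block that lacks 1 sample of a set mixes set and genotype. With the set as a block the log2 differences were 0.54 ± 0.14 for Dclk1, 0.46 ± 0.16 for Trpm5 and 0.47 ± 0.12 for Alox5ap (SE). They were 0.69 ± 0.11 for Rgs13, 0.99 ± 0.24 for Pou2f3 and 1.12 ± 0.22 for Gng13. For Ltc4s the value was 1.06 ± 0.24, for Gfi1b 1.30 ± 0.48 and for Il25 0.28 ± 0.57. None of the 9 genes passed in this fit (edgeR adjusted p = 1.00 for each). Of 28 other tuft identity genes 21 were higher and 0 passed (edgeR). The 2 most abundant were Espn, at 0.20, and Lrmp, at 0.76 (log2 differences).

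Within tuft-like cells the genotypes differed little relative to the error of the main fit, which does not use the set as a block. None of the 9 genes passed (edgeR adjusted p = 1.00 for each), nor did any of 4924 tested genes (0% called, 44, or 0.894%, at an unadjusted p under 0.05; with the set as a block 0.102% were called, none of the 9). Dclk1 was at 868 and 654 CPM in wild type and knockout of set 1 and at 1297 and 1326 in set 2, a log2 difference of -0.11 ± 0.43 (SE). Rgs13, the most abundant, differed by -0.02 ± 0.34, Trpm5 by -0.10 ± 0.38, Alox5ap by -0.16 ± 0.30 and Ltc4s by 0.14 ± 0.30 (SE). These standard errors, from the fit without the block, leave room for changes of either sign. With the set as a block Dclk1 differed by -0.17 ± 0.14, Trpm5 by -0.13 ± 0.17 and Rgs13 by -0.02 ± 0.10 (SE). Alox5ap differed by -0.16 ± 0.13, Ltc4s by 0.14 ± 0.14 and Il25 by -0.60 ± 0.46 in that fit. Pou2f3 differed by 0.45 ± 0.21, Gfi1b by 0.66 ± 0.46 and Gng13 by 0.47 ± 0.17.

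The genes higher in knockout tuft-like cells in both sets were Pou2f3, Gfi1b and Gng13, 3 of 9, where 24.9% of all tested genes were. Pou2f3 was at 143 and 182 CPM in set 1 and at 159 and 227 in set 2 (0.46 ± 0.30, SE), and Gng13 at 321 and 502, then 432 and 509.8 (0.46 ± 0.31, SE). Gfi1b was at 27.1 and 32.6, then 16.3 and 41.3 (0.70 ± 0.49, SE). Il25 was at 37.0 and 17.7, then 28.5 and 29.5 (-0.54 ± 0.51, SE), from 7 to 15 UMIs a sample. Of the 28 other tuft identity genes 15 were higher and 0 passed (edgeR), with a median of 0.01. Markers of other cell types in these cells are given as UMIs per 10000 UMIs, for wild type and knockout of set 1, then of set 2. T cell markers were at 3.23 and 1.74, then 10.9 and 0.236. Enterocyte markers were at 48.9 and 18.5, then 7.63 and 27.5. Goblet markers were at 62.4 and 44.4, then 12.2 and 17.7, and Paneth markers at 36.9 and 26.5, then 12.6 and 32.2. The part of these cell types in the values of the 9 genes was not tested.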

How the data were processed

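Sorted-cell mRNA values are normalized counts, a depth-scaled signal deposited by the authors. Salmon, STAR, DESeq2, Cell Ranger and the mm10 build are named, per the submitters' processing notes, without versions or roles. Normalized-count totals were 10688863 to 19124357 a library. Only a part of the values were whole multiples of a step, which does not recover reads, so no count test was run. Values were analysed as log2(value + 1) with limma 3.58.1, 2 groups a fit, over genes with a mean of at least 10, with Benjamini-Hochberg adjustment. Single-cell values are raw UMI counts, per the deposited matrices. A barcode was kept with 500 or more genes, a total of 1000 or more UMIs, and a mitochondrial share below 25%. By its own cutoff Scrublet called 2 to 26 doublets a sample, so the highest scores were removed instead (0.8% per 1000 barcodes). Each set was clustered with scanpy 1.11.5 (2000 variable genes without the 9 genes, 30 components, 15 neighbours, Leiden resolution 1), and clusters were named from fixed markers. Summed counts were tested with edgeR 4.0.16, and DESeq2 1.42.0 was an alternative. Sets were not used as a block in the main fit; the deviations of the 2 samples of a set correlated at 0.70 in all kept cells and 0.61 in tuft-like cells, and whether a set is a shared day or batch is not stated. Shares have exact (Clopper-Pearson) 95% intervals, and a count of 0 allows 3 counts; both cover counting error only. Scripts were tested on simulated data. The 9 genes and all lists were chosen with earlier results of these data known. All 9 genes are named; of each other list, up to 4 called genes with the greatest difference, or the 2 most abundant where none was called. One gene that this rule names is not reported here.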

Additional observations from a re-analysis of the deposited data

Results flagged for a closer look

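One of 36 groups of 4 mRNA libraries held a value far from the others. Chow replicate 4 of Pou2f3, at 733 normalized counts, lay below the other chow libraries by 0.841 of the group's range, over Dixon's critical value; chance gives about 1 such group in 20.

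Some genes were higher in knockout in one set and lower in the other, and these differences between sets were not tested. In all kept cells the knockout to wild type ratio of Il25 was 0.874 in set 1 and 1.71 in set 2. In tuft-like cells it was 0.478 and 1.03 for Il25, 0.753 and 1.02 for Dclk1, and 0.976 and 1.21 for Ltc4s.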

How the results depend on the processing

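All 9 genes stayed lower on the high fat diet and in CV than on chow under every alternative run. On the high fat diet, 4 of the 9 passed; with no filter 8 did, with all 4 groups in 1 fit 0, without both libraries of conflicting diet names 0, and with the replicate block 6. Called genes went from 135 to 317, 33, 12 and 271 under the same settings. Leaving out 1 library gave 0 to 8 of the 9 genes and 0 to 2590 genes, with 2590 and 8 without chow replicate 2. Against chow, CV calls among the 9 went from 0 to 2 with no filter and 6 with the replicate block; all calls went from 17 to 39 with no filter, 31 with a minimum mean of 50, 26 with all 4 groups and 165 with the replicate block, and were 0 to 6 when 1 library was left out. In each of the 3 mRNA comparisons at least 1 same-numbered pair of libraries had deviations correlated at under 0.1, so the numbers were not taken to pair them. The column names of same-numbered GF and CV libraries do carry numbers close together. Those of chow and high fat form 1 run for replicates 1 and 2 and another for 3 and 4. The labels do not say whether such runs mark shared days or batches. For GF minus CV, calls went from 453 to 1672 with all 4 groups and to between 1 and 684 when 1 library was left out. The difference of Il25 became -0.54 under quantile normalization, -0.19 without CV replicate 1 and -0.08 without GF replicate 4, and that of Ltc4s -0.15 without CV replicate 1. With 1 library left out Ltc4s reached 0.77 and Il25 0.57. The cause of these changes was not tested.

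For knockout minus wild type in all kept cells, DESeq2 called 7 genes, and Il25 became -0.35 with under 10% mitochondrial UMIs. Without wild type replicate 2, Dclk1 was -0.10, Trpm5 -0.11, Alox5ap -0.26 and Il25 -0.85. Without knockout replicate 1, Dclk1 was -0.30, Trpm5 -0.45, Pou2f3 -0.18, Rgs13 -0.54, Alox5ap -0.81, Gfi1b -0.062, Il25 -0.83 and Gng13 -0.26. With 1 sample left out the highest values were 1.46, 1.37, 2.08, 1.90, 1.79, 2.89, 1.79 and 2.37 (Dclk1, Trpm5, Pou2f3, Rgs13, Alox5ap, Gfi1b, Il25 and Gng13). In tuft-like cells, calls went from 0 to 11 with no filter, 5 with the replicate block and 0 to 33 when 1 sample was left out. Without wild type replicate 2, Dclk1 was 0.18, Trpm5 0.16 and Rgs13 0.19; without knockout replicate 1 they were 0.28, 0.21 and 0.14, and without knockout replicate 2 -0.66, -0.50 and -0.21. A lone sample is then assumed to vary like the other group. The difference in the share of cells with at least 3 of the genes was 1.04 to 1.48 points over the other settings and 0.520 to 2.01 with 1 sample left out.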
